A study of Mus musculus with 4 samples.

Results

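Noncoding exon sites are called m6A sites that the authors' annotation placed in an exon of a transcript with no coding sequence. They were taken as the rows of the authors' deposited tables annotated "Noncoding exon", with the sites of Malat1 and Neat1 left out. This gave 1007 of 45668 called sites in mouse 1 and 999 of 47747 in mouse 2, under 388 and 374 single gene names. The cells were bone marrow-derived macrophages (BMDM) from 2 wild-type mice, and all of them had been exposed to lipopolysaccharide (LPS), a bacterial cell wall component, for 3 h. Each mouse gave 1 immunoprecipitated (IP) and 1 input library, with no unstimulated cells among the samples used here, so every value describes LPS-treated macrophages only. The term NTC in the names of both tables is not explained by the labels, nor are the age, sex and strain of the animals given.

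N6-methyladenosine (m6A) is an adenosine carrying a methyl group, written into RNA by the METTL3-METTL14 enzyme, most often at an A followed by C and preceded by a purine. In m6A-eCLIP an antibody to the mark is crosslinked to RNA, and the point at which reverse transcription stops gives the position to single-base resolution. Long noncoding RNAs (lncRNAs) such as Xist, the RNA that coats the inactive X chromosome, carry the mark as mRNAs do. Many protein-coding genes and pseudogenes also produce transcripts that are annotated without a coding sequence, by retained introns, by alternative ends or by loss of the reading frame, and an exon of such a transcript counts as noncoding here. Antibodies to m6A also bind m6Am, a related doubly methylated adenosine found next to the cap at the first base of many transcripts.

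The sequence around a site could be read for 150 noncoding exon sites of mouse 1 and 155 of mouse 2, those that fell in RefSeq windows around gene starts or in microRNA hairpins (GRCm38.p6). All of them had an A at the called base, as had all 5123 and 5308 called sites of any annotation that could be read. The 6 sites called in both mice with the highest mean log2 fold and an A in GAC or AAC are shown first, 1 per gene, because these triplets are the core of the usual m6A context; capitals mark the triplet, with the called A in its middle.
A630072M18Rik, chr5:20951910-20951930, + strand: aaagacgcgGACagaagccgt
Nxpe1-ps, chr9:48420784-48420804, + strand: aaagaaaaaGACctttttcag
2310043P16Rik, chr7:34389747-34389767, + strand: gagctcacgGACggtcccggg
Thap6, chr5:91963226-91963246, + strand: cccacccagGACttaagaacg
Zeb2os, chr2:45113416-45113436, + strand: cattcacagAACtggagaact
Hnrnpdl, chr5:100039246-100039266, - strand: ggcaagaggGACtgtggccct

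The 6 strongest sites without either triplet follow, to show the other kind of sequence found in noncoding exons; capitals mark the called A and the base before it.
Slc7a8, chr14:54781934-54781954, - strand: agggaagcaCAttcgcgagcg
Spag9, chr11:93996081-93996101, + strand: ccgccccggCAgttggtgcag
Myo1e, chr9:70207340-70207360, + strand: gcccgagccCAgcctgagcca
Tmem243, chr5:9100713-9100733, + strand: ggtttgcgaCAgtggccgcag
Fam162a, chr16:36071551-36071571, - strand: ccttggtgaCAttgagcgcca
Supt5, chr7:28338736-28338756, - strand: caggccagcTAggcgttgtgt

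In the first set only the Hnrnpdl site lay within 50 bases of a listed gene start on its own strand. In the second set 5 of the 6 sites did, and those of Spag9, Myo1e and Fam162a were at the listed first base itself. The Slc7a8 site lay 58 bases before the listed start of its gene, which encodes an amino acid transporter.

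The enrichment of a site is given by the authors' fold, the ratio of read starts in the IP to those in the input of the same animal, and a fold of at least 8 (log2 fold of 3) is called enriched below. In mouse 1, 767 noncoding exon sites were enriched, 76.2% (95% interval 73.4 to 78.8, exact binomial), beside 81.7% of all called sites. In mouse 2 there were 743, or 74.4% (71.5 to 77.1), beside 79.1% of all called sites. In both mice the upper end of the interval was thus below the share of all sites. The median fold was 12.5 in each mouse, against 15.0 and 14.4 over all sites. Sites in coding sequence were enriched in 87.7% and 84.7% and sites in 3′ UTRs in 87.7% and 85.7%, while 5′ UTR sites, at 64.7% and 61.9%, lay lower than noncoding exons. The intervals cover counting error only, and no test over samples was run, since an exact sign-flip test over 2 animals cannot go below p = 0.5. Depth was unknown, and 58.7% and 60.9% of the folds were whole multiples of 1 constant per table (within 1e-06), so that many may rest on few read starts in the input.

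**Figure D1:**
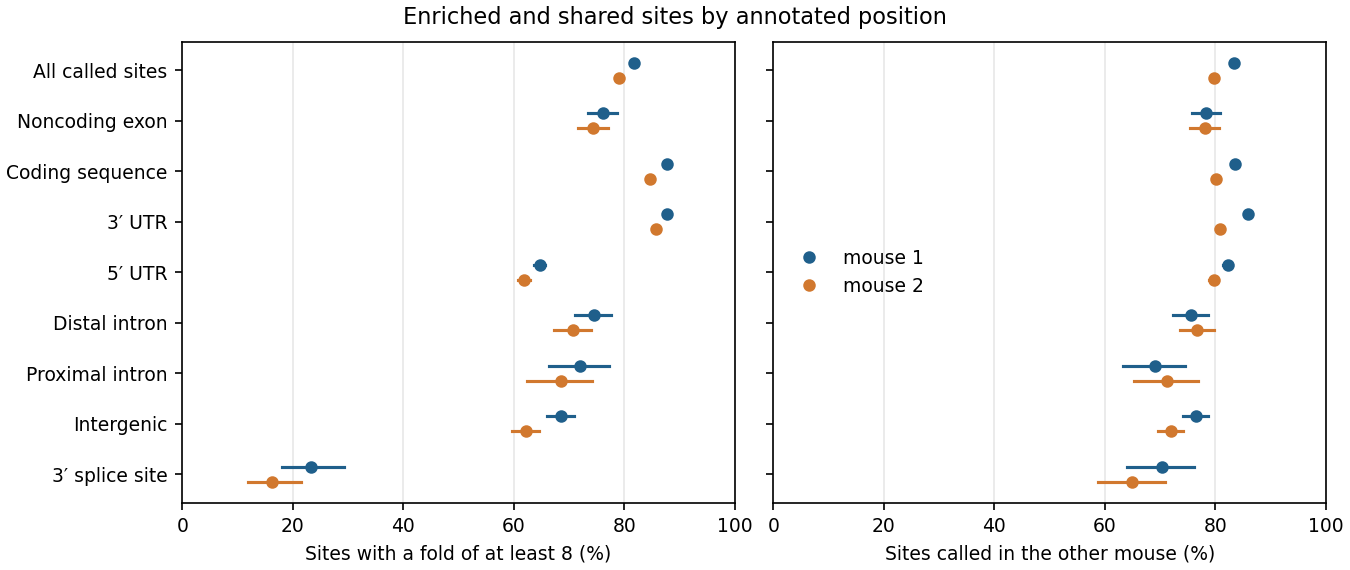
Shares of called sites with a fold of at least 8 (left) and of sites called in the other mouse (right), in percent, by annotated position. Points are the 2 mice and lines the exact 95% intervals; noncoding exon sites, at 76.2% and 74.4% enriched, lie between coding sequence and 5′ UTR sites.

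Of the sites of mouse 1, 789 were called at the same base and strand in mouse 2, 78.4% (75.7 to 80.9) against 83.4% of all sites. Seen from mouse 2 it was 780, 78.1% (75.4 to 80.6) against 79.8% of all sites. Noncoding exon sites were spread towards low scores. With all sites split into 5 equal groups by the authors' score, the lowest group held 24.4% and 25.03% of them and the highest 16.1% and 16.5%. In the lowest group 39.4% and 46.8% of noncoding exon sites recurred in the other mouse, and in the highest 100% and 99.4% did. Over all called sites it was 50.1% and 43.5% in the lowest group and 99.9% and 99.4% in the highest, so noncoding exon sites of low score were below the share of all sites from mouse 1 and above it from mouse 2.

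Among the 789 shared sites, 580 were enriched in both mice, 73.5% (70.3 to 76.6) beside 76.9% of all shared sites. A further 64 were enriched in mouse 1 only and 56 in mouse 2 only, and 89 (11.3%, 9.16 to 13.7) in neither, a share that was 7.99% over all shared sites. Across the 789 sites the log2 folds of the mice had a Pearson correlation of 0.81 and a Spearman correlation of 0.73, given as a description, since sites of a gene share its RNA and libraries. The mice differed by a median of 0.49 on the log2 scale, and 24.7% of sites differed by over 2-fold. At the level of genes, 225 of 300 with a shared noncoding exon site had one enriched in both mice, where 89.4% of all genes with a shared site did. In each mouse the genes held a median of 1 noncoding exon site, against a median of 4 over all called sites. A gene with more sites more easily holds an enriched one, so the 2 gene shares are not like for like.

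**Figure D2:**
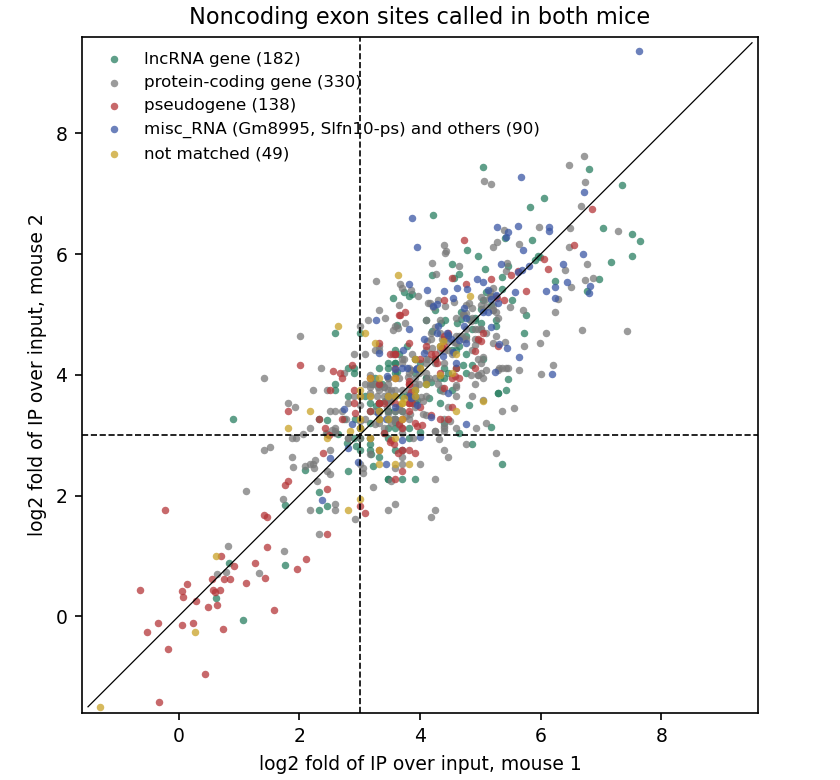
log2 fold of IP over input in mouse 1 (x axis) and mouse 2 (y axis) for the 789 noncoding exon sites called in both mice, coloured by RefSeq gene class, with dashed lines at a log2 fold of 3 and a solid line of equality. The 580 sites enriched in both lie in the upper right, and the points near 0 are mostly pseudogene sites.

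The 2 tables did not always give a shared base the same annotation. Of the 789 sites 79, or 10.01% (8.01 to 12.3), were placed elsewhere in mouse 2, most often in coding sequence (34), a 3′ UTR (20) or a 5′ UTR (15). Over all shared sites 636 (1.67%) differed. Strong examples were Brms1, whose product belongs to a histone deacetylase complex, with folds of 88.2 and 179 at a base annotated as 3′ UTR in mouse 2, and Trex1, the exonuclease that clears cytosolic DNA, with 90.1 and 86.8 at a base annotated as coding sequence there. Lrch4 had 172 in mouse 1 and 26.6 in mouse 2.

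Of 454 single gene names, 401 (88.3%) were found in RefSeq: 220 protein-coding genes, 92 lncRNAs, 82 pseudogenes and 7 others. Of the sites in matched genes, 95.2% and 94.7% lay inside the span of their gene. Protein-coding genes held 405 sites in mouse 1 and 394 in mouse 2, of which 80.5% and 76.1% were enriched. The lncRNAs held 224 and 243 sites with 83.0% (77.5 to 87.7) and 78.2% (72.5 to 83.2) enriched. Pseudogenes held 198 and 178, with 54.5% (47.3 to 61.6) and 63.5% (56.0 to 70.6). Names not found in RefSeq held 74 and 75 sites with 71.6% and 62.7%. Pseudogene sites were thus the lowest class in mouse 1, and in mouse 2 they stood beside the unmatched names.

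**Figure D3:**
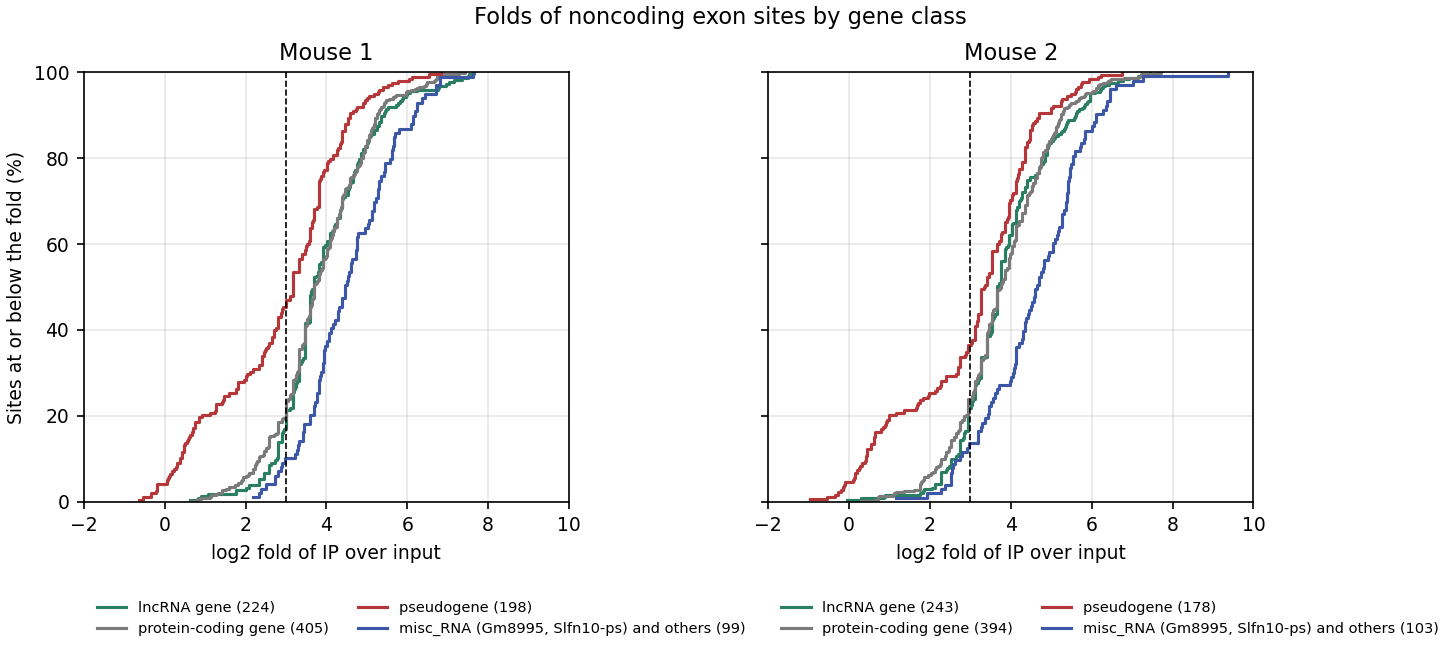
Share of noncoding exon sites (percent, y axis) at or below each log2 fold of IP over input (x axis), by RefSeq gene class, with the number of sites in parentheses and the dashed line at a log2 fold of 3. Names not found in RefSeq are not drawn. Of the 4 classes drawn, the pseudogene curve is the first to rise in both mice, with 20.2% of its sites under a fold of 2.

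Xist had the most sites of any lncRNA, 35 in mouse 1 and 34 in mouse 2, with 33 called in both and 32 enriched in both. Its median folds were 41.1 and 44.9 and its strongest shared site, at base 103460566 of chromosome X, had 163 and 141. The sites fell into 5 groups, each over 1000 bases from the next. The first, 15 to 1998 bases from the gene start, held 10 shared sites, and its folds ran from 16.0 to 200 in mouse 1 and 8.30 to 74.1 in mouse 2. A second group of 4 lay at 9357 to 9446 and a pair at 12574 to 12582. The fourth group, at 16626 to 17245, held 10 shared sites, 9 of them enriched in both, and reached 143 and 169. The last, at 22586 to 22737, held 7, all enriched in both, and reached 184 and 173. The highest fold of mouse 1 was in the first group and those of mouse 2 were in the last and the fourth, where mouse 1 was also high. Long stretches between the groups held no called site in either mouse.

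A630072M18Rik, a lncRNA gene at chr5:20950989-20956398 on the + strand, held 15 sites in mouse 1 and 16 in mouse 2, of which 15 were shared and 13 enriched in both. All lay in the first 1535 bases of its span. A stretch with 4 of them is printed because each has the A of AAC or GAC at the called base; capitals mark these triplets.
A630072M18Rik, chr5:20951873-20951930, + strand: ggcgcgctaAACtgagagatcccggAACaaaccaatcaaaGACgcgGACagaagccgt
From left to right the A at 20951883 had folds of 18.6 and 100.1, the A at 20951899 had 41.1 and 49.1, the A at 20951914 had 25.6 and 32.7, and the A at 20951920 had 58.2 and 75.1. All 4 were enriched in both mice and higher in mouse 2, most of all the first.

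Among lncRNAs described as widely expressed, Tug1 held 16 and 17 sites, with 13 shared and 12 enriched in both, and median folds of 18.1 and 15.4. Its highest folds, 32.1 and 28.9, were lower than those of Xist, and its sites covered the span from 1771 to 8308 bases after the start. Oip5os1, also known as Cyrano, had 7 and 8 sites. Its 3 sites at 31 to 37 bases from the start had folds of 7.02 to 18.3 in mouse 1 and 5.30 to 14.7 in mouse 2. Those at 5405 to 5622 bases had 24.6 to 66.7 and 5.78 to 121, and 4 of them were enriched in both. The RNA 2900097C17Rik, named Norad in other annotations, had 6 and 3 sites, with 12.4 and 50.1 at the strongest shared one. All 3 listed genes with a site had one enriched in both mice, beside the 225 of 300 genes given above.

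The list of RNAs tied to immunity and LPS contributed 3 genes. All 3 had a site enriched in both mice, beside the 225 of 300 genes given above. Of the 7 shared sites of the list, 4 were enriched in both, beside 73.5% of all shared noncoding exon sites. AW112010, an LPS-responsive transcript of macrophages, held 5 sites in each mouse. The 3 sites 140 to 148 bases from its start had folds of 1.53 to 6.91 in mouse 1 and 1.23 to 7.35 in mouse 2, none enriched. Its 2 sites at 2707 and 2730 bases had 28.0 and 44.1 in mouse 1 and 30.4 and 56.0 in mouse 2. Within this RNA the sites near the end were thus the high ones in both animals. Morrbid, which restrains the death factor Bim in short-lived myeloid cells, had 1 site with 24.1 and 17.3, at scores of 14.5 and 11.6 that are near the lowest listed. Ptgs2os2, which lies beside the cyclooxygenase 2 gene, had a shared site with 11.0 and 12.5.

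**Figure D4:**
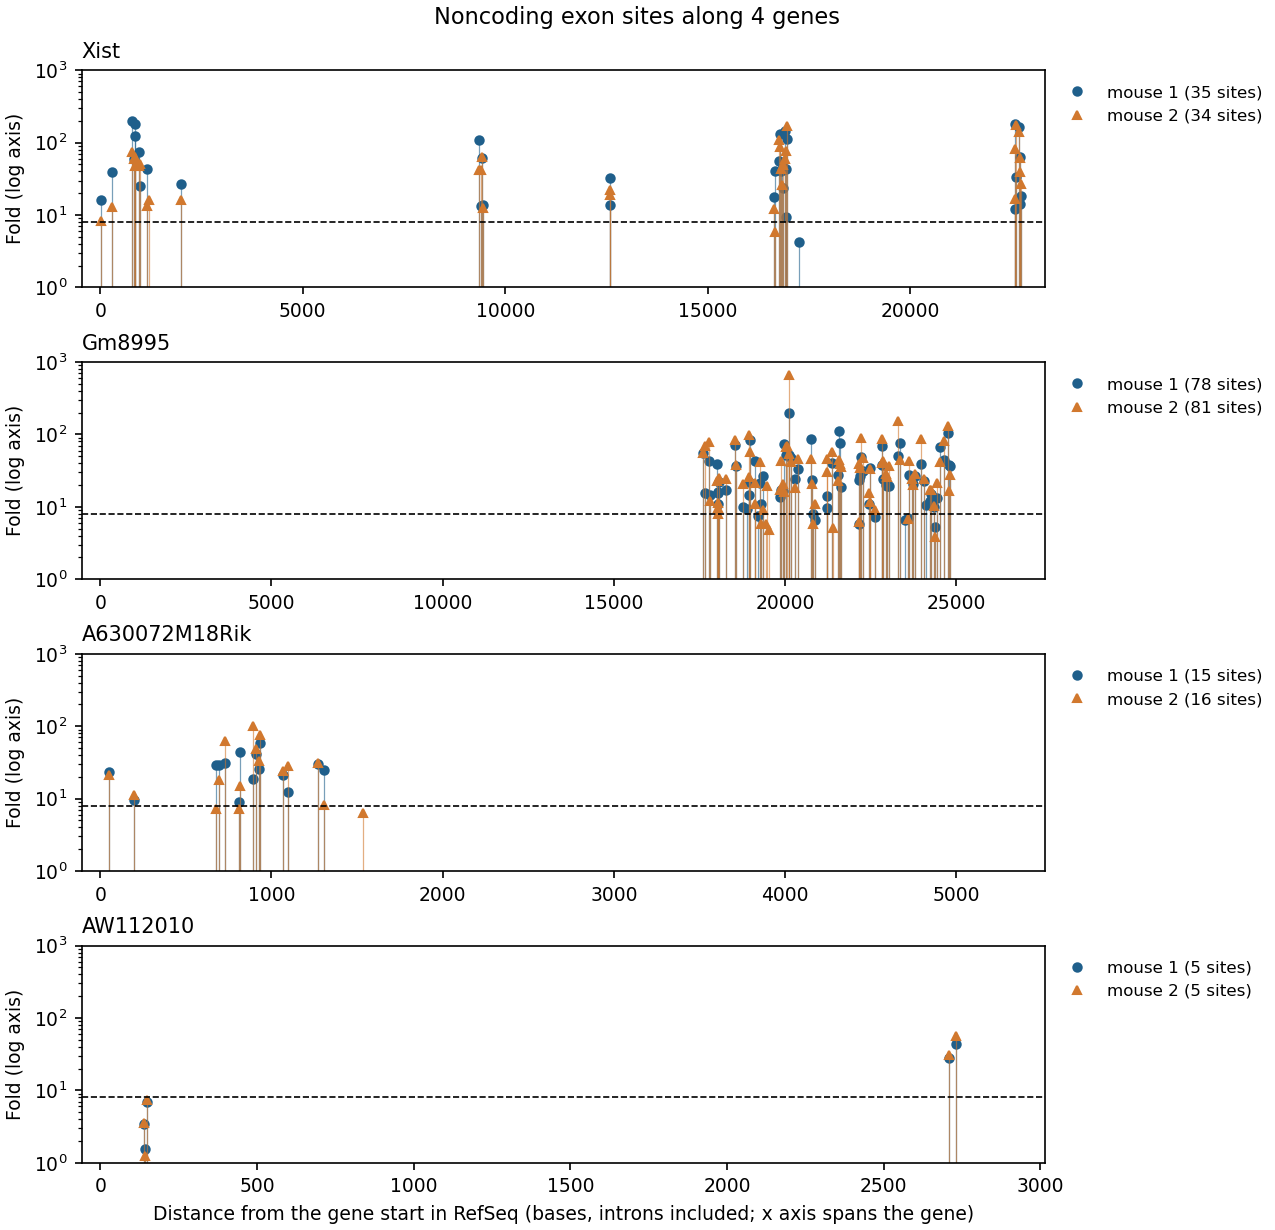
Fold of IP over input (log axis) against distance from the RefSeq gene start in bases, introns included, for the noncoding exon sites of Xist, Gm8995, A630072M18Rik and AW112010 in mouse 1 (circles) and mouse 2 (triangles), with the dashed line at a fold of 8. The sites form separate groups in Xist, 1 dense block in Gm8995 and A630072M18Rik, and a low and a high group in AW112010.

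The same split by position was made over all lncRNA genes, AW112010 and Oip5os1 included. Within the first 150 bases of the gene there were 47 sites in mouse 1, of which 66.0% (50.7 to 79.1) were enriched, and 49 in mouse 2, with 59.2% (44.2 to 73.0). Farther along there were 174 and 187 sites with 87.9% (82.1 to 92.4) and 84.0% (77.9 to 88.9). The median folds were 9.36 and 8.67 near the start and 14.0 and 14.4 beyond it. Without Xist, AW112010 and Oip5os1, 72.5% (56.1 to 85.4) and 64.3% (48.0 to 78.4) were enriched near the start and 85.1% (77.9 to 90.6) and 80.95% (73.7 to 87.0) beyond it, and the intervals of both positions overlapped in both mice. In genes with sites of both kinds, the strongest farther site exceeded the strongest early site in 10 of 13 genes in mouse 1 and 10 of 16 in mouse 2. These genes included Xist, AW112010 and Oip5os1. Farther sites were the more numerous over all lncRNA genes, so these maxima were taken over unequal numbers of sites. The first 150 bases were chosen as a limit after these values had been seen.

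Hosts of small RNAs held few sites. Among snoRNA hosts only Snhg20 had one, with folds of 9.36 and 5.58, so it was enriched in mouse 1 alone. Of the 4 microRNA hosts with a site, 3 had one in both mice. Of those 3, 2 had one enriched in both, beside the 225 of 300 genes given above. Mir22hg had 46.1 and 37.6 at its strongest base, which mouse 2 annotated as an intron of a noncoding RNA. Dleu2, host of the miR-15 and miR-16 cluster, had 9.03 and 10.6, and Mir142hg had 6.22 and 27.9. For mmu-mir-155, the microRNA induced by LPS, 1 site beside the hairpin was called in mouse 2 only, with a fold of 2.25. Peg13 was the only imprinted RNA of the list with a site, at 12.0 and 18.3 at a base that mouse 2 annotated as a distal intron. Its only noncoding exon site in mouse 2 was at another base, with a fold of 6.74. Of 13 antisense RNAs named for the opposite gene, 7 had a shared site, and all 7 had one enriched in both, beside the 225 of 300 genes given above. Zeb2os reached 54.2 and 31.8, Brip1os 23.1 and 56.8, Rab10os 17.05 and 29.8 and Sp3os 12.0 and 9.63. No small structural RNA of the list had a noncoding exon site. The libraries were made from poly(A)-selected RNA, and sites annotated otherwise were not counted for this list.

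The gene with the most sites was Gm8995, which RefSeq classes as misc_RNA, at chr7:106502153-106529202 on the - strand. It held 78 sites in mouse 1 and 81 in mouse 2, with 74 shared and 66 enriched in both. Its median folds were 23.4 and 27.8, and its strongest site, at base 106509086, had 199 and 662, the latter being the highest fold of any noncoding exon site in mouse 2. All its sites lay between 17617 and 24805 bases from the gene start. Nearby on chromosome 7, Gm1966 held 23 and 26 noncoding exon sites, of which 16 were shared and 11 enriched in both, with median folds of 12.0 and 11.6. Gvin1, which encodes a very large interferon-induced GTPase in the same region, held 3 and 1 sites of any annotation, none shared. Gm4070 held 1 and 1. Where such neighbouring genes share near-identical sequence, the counting of reads could move sites between them, so the split over these genes is uncertain. Without Gm8995 the enriched share of noncoding exon sites was 75.03% and 73.1%.

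Other genes with many or strong sites included the following. Slfn10-ps, a schlafen family member also classed as misc_RNA, held 13 and 12 sites, with 11 shared and all 11 enriched in both. Gm12250, an immunity-related GTPase also called Irgb10, held 15 and 16 sites with 12 enriched in both, and reached 107 and 146 at its strongest shared base. Apobec3, a cytidine deaminase that restricts retroviruses, held 17 in each mouse, with 16 shared and 15 enriched in both. A group of its sites lay 22969 to 23644 bases from the gene start, with 14 shared and 13 enriched in both. Over the sites of that group called in each mouse, the median folds were 33.1 and 17.3. Gbp7, a guanylate-binding protein, held 6 and 8 noncoding exon sites, with 155 and 83.3 at the strongest shared base. It also held 10 and 8 sites annotated otherwise. Slfn10-ps and Ifi203-ps were picked out after their values had been seen; Ifi203-ps held 13 and 10 sites, 7 enriched in both, and reached 93.3 and 71.3.

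Protein-coding genes with a noncoding exon site numbered 192 in mouse 1 and 182 in mouse 2. Most of them, 148 (77.1%) and 138 (75.8%), also held sites in coding sequence or UTRs. In these genes the strongest noncoding exon site was below the strongest other site in 98 genes and above it in 49 in mouse 1, and below in 94 and above in 42 in mouse 2. The median log2 difference, noncoding minus other, was -0.79 and -0.93. These genes held a median of 1 noncoding exon site and 4 other sites, so the maximum was taken over unequal numbers. With the median fold of each kind per gene, noncoding was below other in 87 genes and above in 61 in mouse 1, and below in 72 and above in 63 in mouse 2, and the median log2 difference was -0.30 and -0.05. In Itga6, which encodes an integrin chain that binds laminin, the strongest site was a noncoding exon site, which at base 71857004 of chromosome 2 had 105 and 197. Its strongest other site reached 86.2 and 40.4. Slc7a8 had 101 and 112 at the site printed above, nearly the same in both animals.

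Pseudogenes differed from the other classes at the low end. Folds under 2 were found at 40 of their 198 sites in mouse 1 (20.2%, 14.8 to 26.5) and at 36 of 178 in mouse 2 (20.2%, 14.6 to 26.9). The other noncoding exon sites had such folds at 12 of 809 (1.48%) and 14 of 821 (1.71%), and all called sites at 1.10% and 1.25%. No site was enriched in 31 of 72 pseudogenes in mouse 1 and 26 of 65 in mouse 2. Rpl36-ps2, a copy of a ribosomal protein gene, had 6 sites in each mouse, all 6 shared, with highest folds of 2.76 and 2.23. They all lay 244 to 253 bases from its start. The parent gene Rpl36 had 2 sites, both shared and 1 of them enriched in both mice. Their highest folds were 34.1 and 48.1 and their median folds 18.1 and 27.1. Gm3788 stayed at or below 2.40 and 1.84, and Gm5457 at or below 3.01 and 1.79. The Gm5457 sites lay 213 to 223 bases from its start, and most Gm3788 sites 149 to 154 bases from its own. Such neighbouring calls were counted as separate sites, and the intervals above do not allow for this grouping. Reads of a processed copy and of its parent can be near-identical, so values of such pairs are uncertain, and the part this plays in the low folds was not tested.

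Other pseudogenes were well above the limit in both animals. Bambi-ps1, a copy of the gene for a decoy receptor of the TGF-beta family, had 6 shared sites, 5 of them enriched in both, and 115 and 107 at base 122467085 of chromosome 2. Gm8818 had 9 shared sites with 8 enriched in both and reached 49.1 and 53.0. Nxpe1-ps had 7 shared sites, all enriched in both. H2-K2, of the class I histocompatibility family, had 7 shared and 4 enriched in both, with 19.1 and 19.3 at its strongest.

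For each mouse the naming rule took 3 genes with enriched noncoding exon sites in that animal and none called in the other. In mouse 1 these were Igkv16-104, an immunoglobulin segment with 2 sites of up to 15.0, A930005H10Rik with 11.0 and E2f6 with 15.0. In mouse 2 they were Mlf2, with 4 sites of which 2 were enriched and the highest had 21.8, Gm10177 with 2 of up to 18.02 and Znf41-ps with 2 of up to 11.6. Ighm, the constant region of immunoglobulin M and a product of B cells, had 4 and 8 sites with 111 and 41.1 at the strongest. Of the markers listed for other cells, 1 of 10 lymphocyte genes (Cd79b), 5 of 8 neutrophil genes and 1 of 6 stromal and endothelial genes (Kdr) had a called site of any annotation in both mice, against 10 of 10 for macrophages. In these bulk libraries, fewer cells of a type and less RNA per cell cannot be told apart, and the part of other cells in the immunoglobulin sites was not tested.

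Of the genes with a noncoding exon site, 57.5% and 54.0% had 1 such site, beside any sites annotated otherwise. Over all called sites, 19.7% and 19.3% of genes had 1 site. The 45 and 40 genes with at least 5 noncoding exon sites held 46.4% and 45.0% of the noncoding exon sites. Genes with at least 5 sites held 72.3% and 73.7% of all called sites. A neighbouring noncoding exon site within 5 bases was found for 14.1% (12.0 to 16.4) and 13.7% (11.6 to 16.0), and a neighbour within that distance for 10.6% and 10.7% of all called sites.

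A listed RefSeq start on the same strand lay within 50 bases of 112 noncoding exon sites in mouse 1 and 119 in mouse 2. That was 11.1% and 11.9% of noncoding exon sites, beside 10.4% of all called sites in each mouse. Of the 112 and 119 sites, 91 and 99 were in protein-coding genes and 19 and 18 in lncRNAs. None of the 82 pseudogenes has a listed start, and their sites could not be counted here by their own start. Of the noncoding exon sites near a start, 14 and 13 were at the listed first base itself. Over all called sites near a start it was 520 of 4767 and 544 of 4947. Sites near a start were enriched in 70.5% (61.2 to 78.8) and 66.4% (57.2 to 74.8), and sites farther away in 76.9% and 75.5%. Over all called sites the corresponding shares were 64.5% and 61.6% near a start and 83.8% and 81.1% farther away. The gap was smaller for noncoding exon sites than for called sites as a whole in both mice, a difference for which the design gave no test. The 895 and 880 farther noncoding exon sites included all 198 and 178 pseudogene sites, of which 54.5% and 63.5% were enriched. Over all called sites, 242 of 40901 and 215 of 42800 farther sites were in pseudogenes. The 2 gaps are therefore not like for like, and the gap without pseudogenes was not computed.

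The sequence at the site divided along the same line. With the A at the called base, GAC or AAC was searched on the strand of the site. Near a listed start 1 of 102 readable sites of mouse 1 (0.98%) and 3 of 109 of mouse 2 (2.75%) had it, and a C stood before the A in 66.7% and 61.5%. Farther away 29 of 48 (60.4%, 45.3 to 74.2) and 27 of 46 (58.7%, 43.2 to 73.0) had the triplet, and a C preceded the A in 18.8% and 19.6%. All called sites had the triplet in 1.94% and 2.10% near a start, with a C before the A in 64.0% and 63.4%, and in 24.9% and 24.2% farther away. Coding sequence sites farther away had it in 54.4% and 57.6%, and 3′ UTR sites there, few of which were readable, in 100% and 95.8%. Of all readable called sites farther away, 473 of 791 and 506 of 825 were 5′ UTR sites, which had it in 9.94% and 10.5%. Near a start, noncoding exon sites were thus close to all called sites in these shares, and farther away to coding sequence sites. The 48 and 46 noncoding exon sites farther away came from 31 and 32 genes. The A630072M18Rik stretch printed above held 4 of their triplets, and the intervals do not allow for such grouping. Among all A bases of the windows on both strands, 10.6% stood in GAC or AAC and 29.6% followed a C. The longer GGAC, which overlaps GAC, was found at 31.3% and 26.1% of the sites farther away, beside 1.68% of all A bases.

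By class, 18 of 41 readable lncRNA sites in mouse 1 (43.9%) and 17 of 39 in mouse 2 (43.6%) had GAC or AAC, and 3 of 97 (3.09%) and 3 of 103 (2.91%) in protein-coding genes, most of whose readable sites lay by a start. Sites with either triplet were enriched in 93.3% and 83.3% (28 and 25 of 30), with median folds of 15.0 and 14.4. Sites without were enriched in 72.5% and 67.2%, with medians of 11.0 and 11.6. Of the 30 sites with a triplet in each mouse, 29 and 27 lay over 50 bases from a listed start. Readable sites at that distance were enriched in 85.4% and 78.3%, and those near a start in 72.5% and 67.0%. Triplet and distance were not separated here. The readable sites were a fraction of all noncoding exon sites and were drawn towards starts by the windows, so these shares do not describe the whole class.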

How the data were processed

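m6A-eCLIP tables from BMDM of 2 mice (4 libraries, 1 IP and 1 input per mouse) were used. Per the labels' protocols, poly(A) RNA was selected from total RNA and a barcoded RNA adapter was ligated. Per the submitters' processing notes, cutadapt 2.7, STAR 2.6.0c and UMI-tools 0.5.1 and the builds mm10 and hg38 were used. Neither the site caller nor the meaning of its score nor the gene models are named in what was used here. The authors deposited 1 table per mouse with a score per site (per the file headers, all above 10) and a fold, the ratio of read starts in IP over input. Read numbers per library were not used, so depth is unknown.

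Sites were matched between mice at the same base and strand; where the tables placed a shared site differently, mouse 1 decided. Positions are 1-based, mm10 (GRCm38). A site was called enriched at a fold of at least 8. Shares have exact (Clopper-Pearson) 95% intervals for counting error. Gene classes, spans and starts came from RefSeq (GRCm38.p6), sequences from its windows of 250 bases before to 50 after gene starts and its hairpins. No test was run, since each mouse has 1 table and sites are not replicates. Genes were named by rule: the 10 whose strongest shared site had the highest mean log2 fold, the 5 with the most shared sites, the 3 with the most of these but none enriched, 3 per mouse with enriched sites in that mouse only, up to 6 per list, and genes of the printed sequences (6 per kind); genes given beyond these were chosen after their values were seen. The members and lists were chosen with earlier results of these data known. Alternatives changed the fold limit, the score, the overlap, the annotation and the genes included, and left out a mouse. Matching and sequence reading were tested on simulated data. Python 3.11.15, pandas 2.3.3, NumPy 2.4.6, SciPy 1.17.1 and Matplotlib 3.10.9 were used.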

Additional observations from a re-analysis of the deposited data

How the results depend on the processing

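The share of enriched noncoding exon sites (76.2% and 74.4%) moved most with the limit. With the limit at a log2 fold of 4 it was 38.0% and 40.0%, and with the limit at 1 it was 94.8% and 94.995%. With scores of at least 20 it was 83.2% and 84.3%, and the median fold was 17.05 and 17.3. Dividing folds by the constant of the table gave 78.2% in mouse 2, and leaving out genes that are protein coding in RefSeq gave 73.3% in mouse 1. The share called in both mice was 93.2% and 91.7% at scores of at least 20 and 70.5% and 71.1% where both tables had to say noncoding exon. GAC or AAC within 2 bases of the called base was found at 32.0% and 29.0% of readable sites, beside 20.0% and 19.4% at the called base itself. Among readable sites enriched in both mice, it was 40.2% and 42.1% within 2 bases and 26.8% and 27.6% at the called base. Sites enriched in both mice numbered 287 with the limit at 4, and genes with such a site 118; without protein-coding genes 101 genes remained of 225. Using 1 mouse alone, the enriched sites ranged from 743 to 767 and their genes from 276 to 299. Of all recomputed values, 20 moved and 50, of which 20 were for named genes, stayed within the range set for them. The values from 1 mouse alone are among these 50, although with both mice there were 580 sites and 225 genes. That range is thus wide. No paired analysis was possible because each fold already sets the IP against the input of the same animal and no values per library were used. The unknown depth, the 2 animals and the windows that cover few sites limit these values, and a single site's fold carries no error.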
